A study of Mus musculus with 14 samples.

Results

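Rora, Ahr, Foxp3, Bcl6 and Ascl2 encode transcription factors that guide CD4 T cells towards fates other than Th1, and Prdm1 encodes a repressor of Bcl6. These regulators are 6 of the 21887 protein-coding genes of the RefSeq table for GRCm38.p6, were chosen by name, and were examined with 10 kb of flanking sequence on either side in mouse Th1 cells. The question was which of them carried acetylated histone H3 at lysine 27 (H3K27ac), a mark of active promoters and enhancers, beside peaks of CTCF, which organises chromatin loops, and of ETS1, a lymphocyte transcription factor. All cells were naive CD4 T cells taken from spleen by negative selection and cultured for 6 days on anti-CD3 with soluble anti-CD28, IL-12 at 10 ng/mL and IL-2 at 1 ng/mL. The wild type (WT) was strain C57BL/6J, and the other genotype, written KO here, was C57BL/6J-Ets1-SE-KO. The ages of the mice are not given in the labels. CUT&RUN, in which a nuclease tethered to an antibody releases the DNA around its target, gave 2 libraries per antibody and genotype and 1 IgG control library per genotype.

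By the titles the 2 WT libraries of an antibody are technical replicates of 1 biological replicate, while the 2 KO libraries are separate biological replicates. The file names number the 2 CTCF libraries of WT differently, so their technical status is uncertain, and the titles were followed. Each library is a list of called peaks without read counts, so depth is unknown and a missing peak means only that none was called. The lists also hold weak peaks. By the authors' q-value, the lowest −log10 q of an antibody list was 0.605 to 0.633. The median −log10 q of the ETS1 lists was 1.51 to 2.28. The H3K27ac lists held 24581 to 28647 peaks and the CTCF lists 31368 to 40502, with more in both KO than in both WT libraries. All H3K27ac peaks together covered at most 21.8 Mb in a WT library and as much as 28.5 Mb in a KO library, so longer windows in KO are set against the share over all genes. The ETS1 lists were uneven, since the WT libraries had 14013 and 23419 peaks but the KO libraries 40705 and 9344. The IgG lists (2 peaks for WT, 285 for KO) had none in the 6 windows. With 2 libraries against 2 an exact two-sided permutation test cannot go below a p of 0.333, so no gene was tested and the values describe these libraries. All 10 T cell identity genes (Cd3e and Cd4 among them) had H3K27ac in all 4 libraries, as did 9 of 10 Th1 regulator genes. The same held for 3 of 6 B cell, 2 of 6 myeloid, 1 of 2 CD8 T cell, 0 of 3 NK cell, 2 of 4 erythroid and 1 of 10 non-haematopoietic marker genes, where 52.6% of all protein-coding genes had it. The windows of Pax5 and Ms4a1 (B cells), Lyz2, Cebpa and Adgre1 (myeloid cells), Cd8a, Ncr1 and Gata1 held no H3K27ac peak. Other markers did in all 4 libraries, with WT and KO means of 4.92 and 8.04 kb at Cd79a and 0.769 and 2.09 kb at Ebf1 (B cells), 3.71 and 5.47 kb at Csf1r and 1.62 and 1.61 kb at Cd14 (myeloid cells), and 0.874 and 1.58 kb at Klf1 (erythroid cells). Regions at neighbouring genes were not set apart for these markers, and the part of other cell types in the lengths was not tested.

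Naive CD4 T cells become Th1, Th2, Th17, regulatory (Treg) or follicular helper (Tfh) cells under the control of lineage factors that tend to restrain one another. RORα, the product of Rora, supports the Th17 programme. The aryl hydrocarbon receptor, from Ahr, is a ligand-activated factor that promotes Th17 cells and IL-22. FOXP3 defines Treg cells. BCL6 is the repressor required for Tfh cells, and ASCL2 is a basic helix-loop-helix factor that acts in Tfh cells and induces the receptor CXCR5. BLIMP-1, from Prdm1, represses Bcl6 and is itself repressed by BCL6.

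In these Th1 cells H3K27ac was called on the listed transcription start of a single one of the regulators, Bcl6. Within Rora and Prdm1 it lay far from the listed start, and the Rora window held a further region on the start of the next gene, Ice2. Only 1 start was listed for each of Rora and Prdm1. Whether the regions within these genes lie on starts that were not listed was not assessed. The region shared by all libraries in the Foxp3 window lay outside the gene and covered the start of its neighbour Ppp1r3f. Ahr, for which no start was listed, had a short call at its higher-coordinate end in 2 of 4 libraries. Ascl2 had no call in any library. RefSeq promoter sequences of GRCm38.p6, covering 250 bases before to 50 bases after a start, were listed for 5 of the 6 genes, with 7 starts in all. Ahr was not listed, so whether peaks lay on its start was not assessed. Peaks covered the first start of Bcl6 in all 4 H3K27ac libraries, and no library had H3K27ac on the other 6 starts. Over all 21263 listed starts of protein-coding genes, 36.9% had H3K27ac in all 4 libraries and 45.3% in any. CTCF peaks lay on the starts of Bcl6 (first start) and Prdm1 in all 4 libraries, where 29.8% of all starts had them. Counting any library, CTCF lay on 3 of the 7 starts, against 48.5% of all starts. No start of the 5 genes had ETS1 in all 4 libraries, against 22.3% of all starts, and 2 of the 7 had it in any library, against 49.9%.

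**Figure D1:**
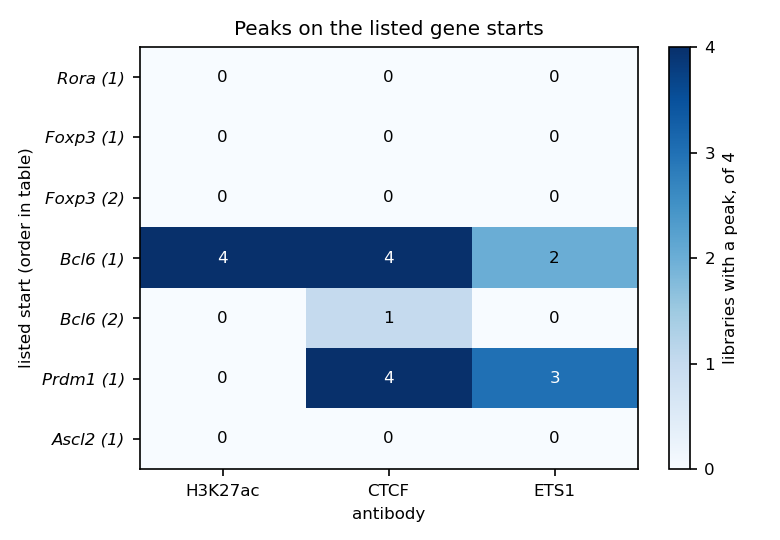
Number of libraries, of 4 per antibody, with a peak overlapping each of the 7 listed starts of the regulators. Rows are starts, numbered within a gene in the order of the table, and columns are antibodies. The first Bcl6 start has H3K27ac and CTCF in all 4 libraries, the Prdm1 start has CTCF in 4 and ETS1 in 3, and the starts of Rora, Foxp3 and Ascl2 have none.

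The sequences before 4 of these starts are printed, namely every stretch with a match to the letters searched, and that of Prdm1. The stretches of Rora, Ascl2 and the first Foxp3 start had no match and no peak, and are not printed. Capitals mark matches to TTCNNNGAA, a palindromic site bound by STAT factors, and to the E-box CACGTG, both of which read the same on either strand as patterns. The letters CGGAAG (1 form of an ETS site), AGGTGTGA (T-box) and a core of the CTCF site were searched on both strands. None matched in any of the 7 stretches of 250 bases. Sites written with other letters were not searched for, so other forms of an ETS site may be present. The first Bcl6 stretch lies under H3K27ac and CTCF peaks. The Prdm1 stretch lies under CTCF and ETS1 without H3K27ac. The second Bcl6 stretch and the second Foxp3 stretch have no H3K27ac, CTCF or ETS1 over them, apart from 1 bp of CTCF in WT replicate 1 at the edge of the Bcl6 stretch.
Bcl6 first start, chr16:23988853-23989102, minus strand: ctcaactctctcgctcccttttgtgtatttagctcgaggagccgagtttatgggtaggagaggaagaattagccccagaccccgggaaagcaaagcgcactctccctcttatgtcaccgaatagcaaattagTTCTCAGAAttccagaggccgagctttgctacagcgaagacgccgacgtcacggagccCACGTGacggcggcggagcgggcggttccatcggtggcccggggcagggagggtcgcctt
Bcl6 second start, chr16:23981284-23981533, minus strand: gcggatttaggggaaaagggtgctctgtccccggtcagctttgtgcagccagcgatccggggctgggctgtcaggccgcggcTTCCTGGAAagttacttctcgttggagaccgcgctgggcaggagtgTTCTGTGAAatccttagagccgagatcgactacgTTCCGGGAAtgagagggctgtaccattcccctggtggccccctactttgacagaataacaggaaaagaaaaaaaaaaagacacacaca
Prdm1, chr10:44458749-44458998, minus strand: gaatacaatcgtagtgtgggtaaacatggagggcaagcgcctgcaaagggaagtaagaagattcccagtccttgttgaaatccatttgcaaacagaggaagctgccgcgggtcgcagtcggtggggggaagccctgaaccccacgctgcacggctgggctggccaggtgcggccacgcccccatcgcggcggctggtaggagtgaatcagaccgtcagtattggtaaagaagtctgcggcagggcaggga
Foxp3 second start, chrX:7580233-7580482, plus strand: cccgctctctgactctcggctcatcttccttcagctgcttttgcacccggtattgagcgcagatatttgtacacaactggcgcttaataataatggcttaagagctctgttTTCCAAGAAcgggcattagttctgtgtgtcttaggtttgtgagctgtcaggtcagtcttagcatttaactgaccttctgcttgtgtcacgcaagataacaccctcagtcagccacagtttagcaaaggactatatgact
The second Bcl6 stretch holds 3 STAT matches, at 168 to 160, 122 to 114 and 88 to 80 bases before the start. Of all 21263 promoters, 6.58% held at least 1 such match and 3 promoters held at least 3. The first Bcl6 stretch holds 1 STAT match, and an E-box that 6.63% of promoters have. The second Foxp3 stretch holds 1 STAT match. The letters CGGAAG were found in 17.1%, the T-box in 0.997% and the CTCF core in 1.98% of all promoters. Matches are letters and not shown to be bound.

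The dinucleotide CpG, which is dense in many promoters active across tissues, was counted in the same stretches. It numbered 26 at Rora, 21 and 13 at the Bcl6 starts, 19 at Ascl2, 15 at Prdm1, and 6 and 7 at the Foxp3 starts, beside a median of 10 over all promoters. The median was 18 for starts with H3K27ac in all 4 libraries and 4 for starts with it in none. The listed starts of Rora and Ascl2 thus had CpG counts at or above the median of acetylated starts and no H3K27ac call. Both listed Foxp3 starts were CpG-poor and uncalled. CpG was not counted at starts that were not listed.

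Bcl6 lies on chromosome 16 from 23965050 to 23988866 and is transcribed from the minus strand. H3K27ac peaks covered 3.50 and 3.33 kb of its window in WT replicates 1 and 2 and 3.73 and 4.15 kb in KO replicates 1 and 2. The genotypes did not overlap, by a small margin, and the KO mean was 1.15 times the WT mean. Most of this length was a single region over the first start, from 23986955 to 23990178, in which the called peaks measured 3202, 3129, 3182 and 3183 bp in the 4 libraries. These peaks ranked within the top 7.48% to 9.86% of their own lists by the authors' q-value. A second region within the gene, from 23984336 to 23985298, was also called in all 4 libraries, with 301 and 197 bp in the WT pair and 333 and 963 bp in the KO pair. The difference between the genotypes came from this second region and from a 218 bp peak of KO replicate 1 in the upstream flank, not from the start. With peaks of −log10 q of at least 5 alone, the genotypes overlapped at Bcl6 and the log2 ratio was 0.01.

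CTCF covered 5.52 and 5.90 kb of the Bcl6 window in WT and 6.33 and 6.43 kb in KO. The genotypes did not overlap, except with 50 kb flanks or peaks of −log10 q of at least 5 alone, where they did (log2 ratios 0.04 and 0.17). The widest CTCF region, from 23981533 to 23985837, had peaks of 3675 to 4220 bp in all 4 libraries. It began at the edge of the second listed start and contained the second H3K27ac region. ETS1 covered less of the Bcl6 window, 0.292 and 1.51 kb for WT and 0.311 and 0 kb for KO, and its genotypes overlapped. The ETS1 region from 23984836 to 23985127 had peaks in both WT libraries and KO replicate 1 and lay inside the H3K27ac and CTCF regions. Over the first start ETS1 was called in WT replicate 2 (900 bp) and KO replicate 1 (159 bp) only. CTCF was also called in all 4 libraries upstream of the first start, from 23990947 to 23991622, and beyond the other end of the gene, from 23962392 to 23962803, with no H3K27ac or ETS1 at either place.

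**Figure D2:**
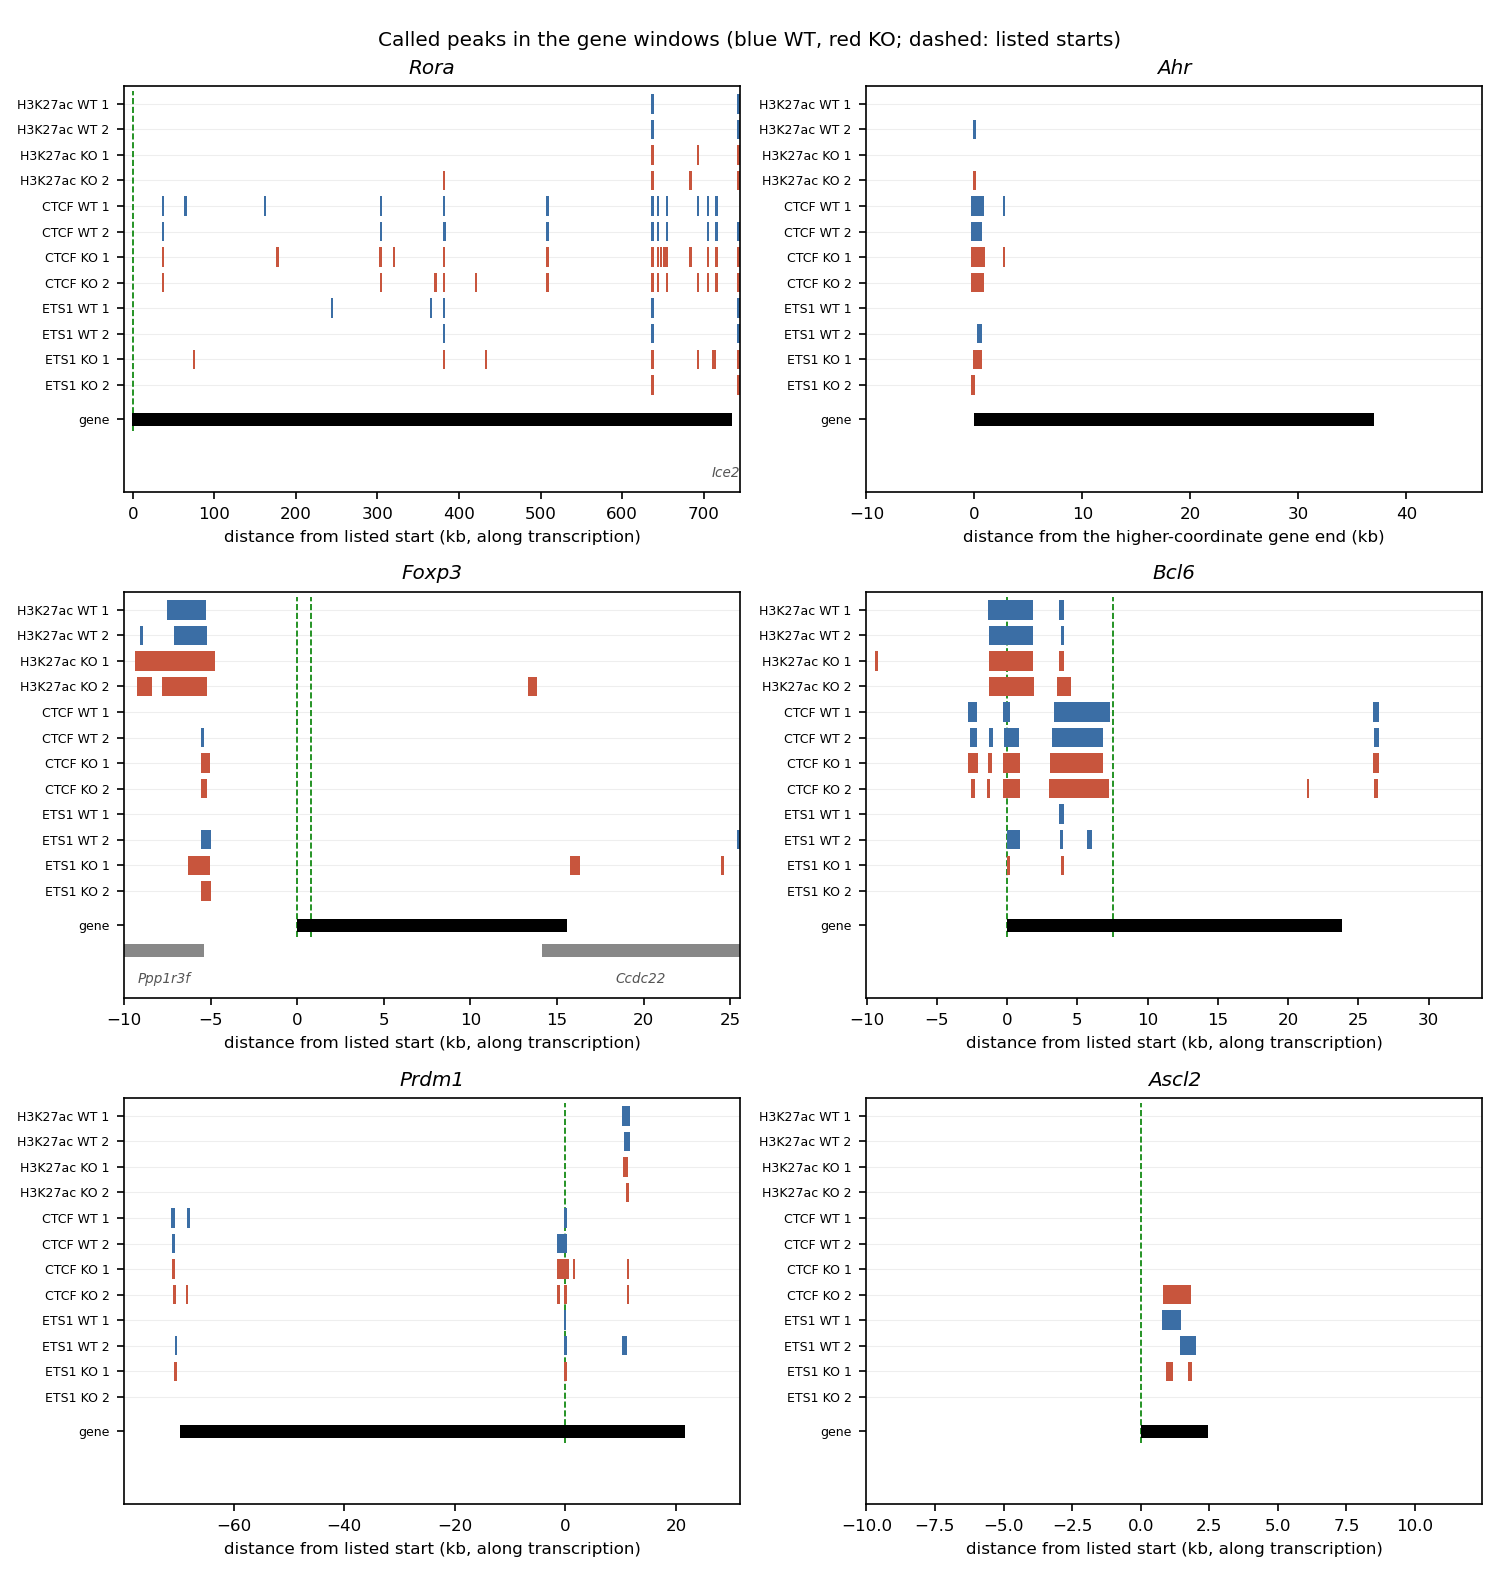
Called peaks in the windows of the 6 genes, 1 row per library (blue WT, red KO), against the distance in kb from the first listed start in the direction of transcription, or, for Ahr, from the gene end with the higher coordinate. Black bars are the genes, grey bars neighbouring protein-coding genes, dashed lines listed starts, and narrow peaks are drawn wider than they are. H3K27ac covers the start at Bcl6, lies before the start at Foxp3, over the start of Ppp1r3f, and lies 10.9 kb and 637 kb after the start at Prdm1 and Rora.

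Prdm1 lies on chromosome 10 from 44437174 to 44528558, on the minus strand, with its listed start well inside these bounds at 44458748. It was the only regulator with a shorter length under H3K27ac peaks in KO. Its peaks covered 1.46 and 1.06 kb in the WT pair and 0.835 and 0.565 kb in the KO pair, so both WT libraries were above both KO libraries and the KO mean was 0.556 times the WT mean. All of this length was 1 region, from 44447078 to 44448540, centred 10.9 kb after the listed start within the gene. The call was weak. Its peaks stood at the top 74.0% and 58.2% of the WT lists and the top 43.7% and 32.8% of the KO lists, and none reached a −log10 q of 5. The narrower KO peaks thus ranked further up their lists than the wider WT peaks did, although ranks from lists of different length show no change.

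The Prdm1 start carried CTCF and ETS1 without acetylation. The CTCF region from 44458091 to 44460341 had 610 and 1871 bp of peaks in WT and 2251 and 1157 bp in KO. ETS1 was called at the start in WT replicates 1 and 2 and KO replicate 1, with 416, 536 and 377 bp, among the top 14.7% to 20.8% of these lists. KO replicate 2, the shortest ETS1 list, had no ETS1 peak in the window. WT replicate 2 also had an ETS1 peak of 898 bp over the acetylated region. In the whole window CTCF covered 1.53 and 2.28 kb for WT and 3.30 and 1.95 kb for KO, and ETS1 covered 0.416 and 1.61 kb in the WT pair and 0.529 and 0 kb in the KO pair. The genotypes overlapped for both. The single region of the 6 windows that was called in both KO libraries and neither WT library lay here. It was a CTCF region of 214 and 153 bp in KO replicates 1 and 2, from 44447446 to 44447674, inside the acetylated region, and among the lowest-ranked peaks of both lists (top 99.5% and 94.8%). Of the CTCF regions in gene windows, 8.82% were called in KO only. A further CTCF region, from 44529330 to 44530181, was called in all 4 libraries just beyond the upstream end of the gene. ETS1 peaks of 172 bp in WT replicate 2 and 152 bp in KO replicate 1 overlapped it.

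Rora is a long gene, on chromosome 9 from 68653404 to 69388246 on the plus strand, and its window of 755 kb was sparsely marked. H3K27ac covered 1.63 and 1.53 kb of it in WT and 2.98 and 2.55 kb in KO. Both KO libraries were above both WT libraries, and the KO mean was 1.75 times the WT mean. This came to 0.209% of the window in WT, where the median gene with a WT peak had 2.85%. The low share goes with the long window. In length, the WT mean of 1.58 kb was above the median of 1.32 kb over genes with a WT peak. The region shared by all 4 libraries inside the gene, from 69289573 to 69291211, lay 637 kb after the listed start. Its peaks measured 928 and 824 bp for WT and 1587 and 1550 bp for KO. The same place held CTCF in all 4 libraries (1554, 1679, 1780 and 1559 bp) and ETS1 in all 4 libraries (476, 979, 1597 and 842 bp). Of the 16043 H3K27ac regions called in all 4 libraries genome-wide, 49.4% overlapped CTCF in all 4 libraries and 37.3% overlapped ETS1 in all 4. Of the 6533 ETS1 regions called in all 4 libraries, 91.8% overlapped H3K27ac in all 4 and 78.4% overlapped CTCF in all 4.

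The other H3K27ac region called in all 4 libraries, from 69397540 to 69398765, lay on the start of the next gene, Ice2, in the flank. It ranked in the top 1.70% to 4.76% of the lists, higher than the region inside Rora, whose peaks stood at the top 18.7% to 44.2%. Within Rora alone, H3K27ac covered 928 and 824 bp in the WT pair and 2271 and 1941 bp in the KO pair, and the genotypes still did not overlap. Part of the KO length came from 684 bp in KO replicate 1 and 247 and 144 bp in KO replicate 2, in regions that no other library had.

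CTCF was called in 20 regions of the Rora window, 9 of them in all 4 libraries, and covered 5.50 and 4.61 kb for WT and 8.57 and 5.83 kb for KO. Of those 9 regions, the one shared with ETS1 and H3K27ac was the only one that overlapped H3K27ac in all 4 libraries, and 7 overlapped neither H3K27ac nor ETS1 in any library. Of the 25226 CTCF regions called in all 4 libraries genome-wide, 31.7% overlapped H3K27ac in all 4 and 41.8% in any, and 47.9% overlapped ETS1 in any. The genotypes did not overlap in CTCF length in the whole window, but did within the gene body (5502 and 4182 bp in WT, 7863 and 5370 bp in KO) and with equal numbers of peaks per library. ETS1 covered 2.30 and 2.25 kb in the WT pair and 3.15 and 1.17 kb in the KO pair, and the genotypes overlapped. Apart from the regions already named, ETS1 was called repeatedly from 69034090 to 69034707, in both WT libraries and KO replicate 1. CTCF was called there in all 4 libraries and H3K27ac in KO replicate 2 alone, so most libraries had these calls without an acetylation call.

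Foxp3 lies on chromosome X from 7579676 to 7595243 on the plus strand. Its window held 2.22 and 2.08 kb of H3K27ac in WT against 4.58 and 3.91 kb in KO, so KO was at 1.97 times WT with no overlap. None of the WT length lay within Foxp3. It belonged to 1 region from 7570320 to 7574897, which covers the listed start of Ppp1r3f, a regulatory subunit gene of protein phosphatase 1, and ends before Foxp3 begins. Within the gene body H3K27ac covered 0 bp in both WT libraries and in KO replicate 1, and 488 bp in KO replicate 2. This one peak stood at the top 64.1% of its list and also lay within 1 kb of the gene Ccdc22. CTCF was called only at the Ppp1r3f start, over 0 and 0.200 kb for WT and 0.552 and 0.337 kb for KO. ETS1 covered 0 and 0.648 kb in the WT pair and 2.01 and 0.602 kb in the KO pair, at the Ppp1r3f start in WT replicate 2 and both KO libraries and near Ccdc22 in WT replicate 2 and KO replicate 1. The gene body of Foxp3 had no CTCF or ETS1 peak in any library. The H3K27ac and CTCF regions before Foxp3 also overlap the long non-coding RNA gene Flicr, which runs from 7573600 to 7581016 and into Foxp3, and which gene they belong to was not tested. Within Foxp3 the genotypes overlapped or had no peak.

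Ahr, on chromosome 12 from 35497979 to 35534989, was marked at its higher-coordinate end only. H3K27ac was called there in WT replicate 2 over 205 bp and in KO replicate 2 over 251 bp, and in neither replicate 1. Both peaks were in the lower part of their lists, at the top 83.8% and 91.5%. CTCF covered 1.42 and 1.02 kb for WT and 1.47 and 1.24 kb for KO, nearly all in a region from 35534008 to 35535302 that was called in all 4 libraries. ETS1 covered 0 and 0.548 kb in the WT pair and 0.898 and 0.412 kb in the KO pair within the same place. The genotypes overlapped for all 3 antibodies, and CTCF was the only one called in every library. With peaks of −log10 q of at least 5 alone, CTCF at Ahr was higher in KO without overlap (log2 ratio 1.18, against 0.08 with all peaks).

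Ascl2 is a gene of 2443 bp on the minus strand of chromosome 7, from 142966822 to 142969264. Its window had no H3K27ac peak in any library. ETS1 covered 0.689 and 0.574 kb for WT and 0.425 and 0 kb for KO, all within the gene body, and both WT libraries were above both KO libraries. The peaks of the 2 WT libraries shared only 9 bp, from 142967809 in replicate 1 and up to 142967817 in replicate 2, so they lay side by side more than on one another. CTCF was called in KO replicate 2 alone, over 1.03 kb. With equal numbers of peaks in each library, the ETS1 genotypes overlapped at Ascl2 (log2 ratio -0.32). The same setting separated them at 3 genes where they otherwise overlapped, with KO higher at Foxp3 (0.60) and WT higher at Bcl6 (-0.56) and Prdm1 (-0.31).

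**Figure D3:**
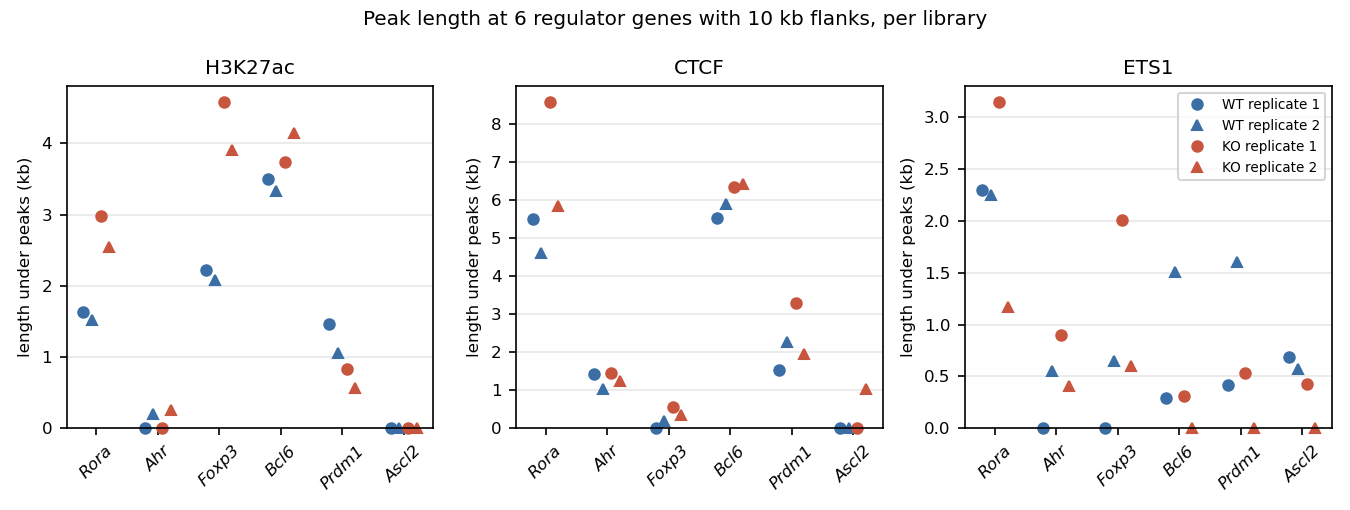
Length under peaks (kb, linear axis from 0) in the window of each gene for H3K27ac, CTCF and ETS1, with 1 symbol per library (blue WT, red KO; circles replicate 1, triangles replicate 2). For H3K27ac the KO symbols lie above the WT symbols at Rora, Foxp3 and Bcl6 and below them at Prdm1, and the ETS1 symbols of a genotype are widely spread at most genes.

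Across the 6 windows H3K27ac was called in all 4 libraries at 4 genes, where 52.6% of all protein-coding genes had it in all 4. Among the 5 with any H3K27ac, KO was higher without overlap at 3 (Rora, Foxp3 and Bcl6) and WT at 1 (Prdm1). Over the 13284 genes with a peak, KO was higher in 54.0% and WT in 6.37%, so 3 higher genes are close to the general share. The median log2 ratio (KO over WT), with 1 kb added to both means, was 0.16 over the 5 genes and 0.18 over all genes with a peak. For CTCF KO was higher at 3 of 6 (Rora, Foxp3 and Bcl6) and WT at none, against 56.3% and 3.02% of 16073 genes. The median log2 ratio was 0.36, with 0.21 over all genes. For ETS1 WT was higher at 1 of 6 (Ascl2) and KO at none, against 7.47% and 3.86% of 16474 genes, with medians of -0.24 and 0.04. Summed over the windows, ETS1 had a log2 ratio of -0.16, whose sign turned with the library left out. It was -0.50 when WT replicate 1 was left out and -1.01 for KO replicate 1, but 0.29 for WT replicate 2 and 0.38 for KO replicate 2. Within gene bodies alone, KO had more H3K27ac at 2 of 5 genes with a peak (Rora and Bcl6; 45.6% of all genes) and WT at 1 (Prdm1; 7.25%). There KO had more CTCF at 1 of 5 (Bcl6; 51.2%) and WT at none (3.1%), and KO had more ETS1 at none (4.91%) and WT at 2 of 5 (Prdm1 and Ascl2; 8.34%).

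Merged over libraries, the windows held 12 H3K27ac, 35 CTCF and 22 ETS1 regions. All 4 libraries shared 6, 16 and 2 of them, where 44.8%, 54.1% and 14.2% of the regions in gene windows were shared. No H3K27ac or ETS1 region was called in both libraries of a genotype and in neither of the other, and no CTCF region in WT only. The genome-wide shares for WT-only and KO-only regions were 2.5% and 6.83% for H3K27ac and 1.08% and 0.556% for ETS1, and 0.521% of CTCF regions were WT-only. Of the 12 H3K27ac regions, 3 overlapped or lay within 1 kb of another protein-coding gene, namely those at Ice2, Ppp1r3f and Ccdc22.

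The levels can be set beside Th1 factors measured in the same lists. Tbx21, which encodes the Th1 factor T-bet, had 8.98 and 9.68 kb of H3K27ac in WT and 10.8 and 8.88 kb in KO, more than any of the 6 regulators in any library. Not all Th1 genes did: Hlx, Eomes and Ifngr1 had WT means of 0.653, 0.728 and 0.564 kb, below Bcl6, Rora and Prdm1, and Twist1 had no peak. Runx3, a partner of T-bet, had the most WT H3K27ac of the 10 Th1 regulator genes, at 21.4 and 21.8 kb against 21.1 and 20.8 kb in KO. Stat4, which transmits the IL-12 signal, had 4.99 and 4.15 kb in the WT pair and 5.90 and 7.17 kb in the KO pair. Gata3, the Th2 master regulator and, like Tbx21, picked after its values were seen, had 1.24 and 0.330 kb for WT and 2.29 and 2.85 kb for KO. In WT the order of mean H3K27ac length was Bcl6 (3.41 kb), Foxp3 window (2.15 kb), Rora (1.58 kb), Prdm1 (1.26 kb), Ahr (0.103 kb) and Ascl2 (0). The WT libraries of neighbours in this order did not overlap, except Ahr and Ascl2, which both had a library at 0. This order depends on the window. Within gene bodies alone Prdm1 (1460 and 1059 bp) was above Rora (928 and 824 bp), since the Rora window takes in the Ice2 start, and Foxp3 had 0 bp in WT. Bcl6 was highest either way, at 2191 and 2085 bp within the gene.

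Genes that work with the 6 regulators in Th17, Treg and Tfh cells were examined in windows of the same kind. Regions at neighbouring genes were not set apart for these partner genes, and windows that lie close together can share peaks. Of the 47 partner genes, 34 had H3K27ac in all 4 libraries and 7 had none. KO was higher without overlap at 30 of the 40 with a peak and WT at 1, beside the 54.0% and 6.37% of all genes given above. Outside the partner lists, KO was also higher at 9 of 10 T cell identity genes and at 4 of 4 Th2 regulator genes with a peak. Among the 9 Th1 regulator genes with a peak, KO was higher at 4 and WT at 1. In the Th17 list of 15 genes KO was higher at 8 of the 10 with a peak and WT at none. Il6ra, an IL-6 receptor chain, had a mean of 10.6 kb in WT and 23.3 kb in KO (n = 2 libraries each), without overlap. Stat3, which relays IL-6, had 14.2 and 13.4 kb in the WT pair and 23.6 and 21.6 kb in the KO pair. Il21, the cytokine gene shared by the Th17 and Tfh lists, had 3.61 and 4.24 kb for WT and 10.0 and 9.99 kb for KO. In the Treg list of 17 KO was higher at 10 of the 16 with a peak and WT at 1. Bach2, with the greatest difference in this list, had a mean of 64.9 kb in WT and 86.3 kb in KO (log2 ratio 0.41). Il2ra, an IL-2 receptor chain abundant on Treg cells, had a mean of 10.4 kb in WT and 28.7 kb in KO (1.38). Neither gene had overlap between the genotypes. Entpd1, an ectonucleotidase gene, was the one with more in WT, at 3.23 and 2.44 kb against 1.54 and 1.58 kb. In the Tfh list of 17 KO was higher at 13 of the 16 with a peak and WT at none. Cd200, a surface glycoprotein gene, had 8.21 and 8.03 kb in the WT pair and 28.7 and 22.1 kb in the KO pair, and Btla, an inhibitory receptor gene, had 7.28 and 7.48 kb for WT and 16.6 and 13.1 kb for KO. Lef1, also in the Tfh list, had a mean of 18.7 kb in WT and 31.6 kb in KO (log2 ratio 0.72), without overlap. The median log2 ratio was 0.49, 0.29 and 0.60 in the Th17, Treg and Tfh lists, over genes with a peak.

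**Figure D4:**
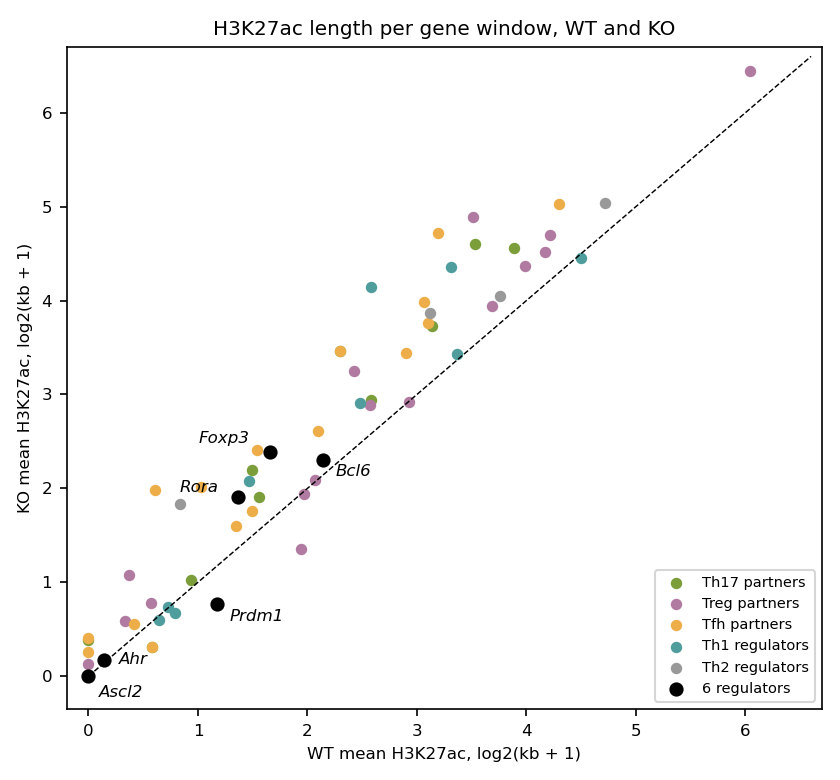
Mean H3K27ac length of each gene window in WT (x axis) and KO (y axis), both as log2(kb + 1), for the 6 regulators (black) and 5 lists of related genes, with the dashed line of equal length. Among the regulators Bcl6, Foxp3 and Rora lie above the line and Prdm1 below it, and most Th17, Treg and Tfh partner genes lie above it.

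Likeness was measured as the Euclidean distance over the 12 antibody libraries in log2(kb + 1), leaving out genes with overlapping windows. The genes nearest to Bcl6 were Ccdc63 (distance 0.572), Calm3 (0.899) and Qprt (1.15). Nearest to Prdm1 were Zfyve27 (0.796), Tgm2 (0.816) and Rras2 (0.857), and nearest to Rora were Mgat5 (0.851), Nfic (0.891) and Prkcz (0.911). Efcab15, Mkrn2 and Slc35d1 were nearest to the Foxp3 window at 0.898, 0.915 and 0.960. For Ahr they were Cfap97d1, Hpd and Scn4a at 0.497, 0.516 and 0.552, and for Ascl2 Eno4, Spc25 and Ccdc39 at 0.565, 0.797 and 0.807.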

How the data were processed

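CUT&RUN peak lists of 14 libraries were used, grouped by antibody and genotype from the sample titles. Per the submitters' processing notes, BWA and the GRCm38 build were used, and the peak names in the deposited files carry a MACS2 folder name. Versions, options, filters and any use of IgG were not given in the sources used here. The deposited lists have no header and 9 columns. By column order and values, the deposited score is a whole number made from q, the deposited fold is a ratio over background within the library, and the last columns are the authors' −log10 p and −log10 q. These were used only to rank or filter peaks within a list.

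Peaks on chromosomes 1 to 19, X and Y were used as deposited. For each gene with 10 kb flanks (RefSeq table of GRCm38.p6), covered length is the sequence under peaks, clipped to the window. For each antibody, peaks sharing at least 1 bp across its 4 libraries formed 1 region, and a region belongs to a window it overlaps. Log2 ratios compare genotype means after adding 1 kb. A gene was called higher in a genotype when both its libraries exceeded both of the other. Promoter sequences are RefSeq's (GRCm38.p6). A peak's place in its list is the rank of its −log10 q as a percentage of the list. Python 3.11.15 with pandas 2.3.3 was used, and the length and region code was tested on simulated data.

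The 6 genes and all lists were chosen with earlier results of these data known. Named partner genes are those with the greatest H3K27ac difference in each direction or the most in WT, up to 3 per list and direction, and only some are described. Alternatives were gene bodies alone, 50 kb flanks, equal peak numbers, −log10 q of at least 5, 0.1 kb in place of 1 kb, other merging rules and leaving out each library. Leaving out regions at neighbouring protein-coding genes was added after the data were seen. No genome sequence was used, so sequences under peaks away from listed starts were not analysed here.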

Additional observations from a re-analysis of the deposited data

How the results depend on the processing

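With lengths summed over the 6 windows, the log2 ratio of KO to WT was 0.43 for H3K27ac, 0.38 for CTCF and -0.16 for ETS1. For H3K27ac it was 0.33 with gene bodies alone, 0.29 with 50 kb flanks and 0.24 without regions at neighbouring protein-coding genes, an alternative chosen after seeing the data, and it ran from 0.38 to 0.47 with 1 library left out. For CTCF it was 0.15 with equal numbers of peaks and 0.62 with −log10 q of at least 5, and 0.25 to 0.50 with 1 library left out. For ETS1 it was 0.48 with −log10 q of at least 5 and ran from -1.01 to 0.38 with 1 library left out. Regions called in 1 genotype were few. With 50 kb flanks there was 1 KO-only H3K27ac and 1 WT-only ETS1 region, with equal numbers of peaks 2 WT-only and 0 KO-only CTCF regions, and with −log10 q of at least 5 there were 2 KO-only CTCF regions. Leaving out a library loosens the definition. KO-only H3K27ac regions then numbered 0 to 3 (3 without KO replicate 1, 2 without KO replicate 2). WT-only CTCF regions numbered 0 to 2 (2 without WT replicate 2), and KO-only CTCF regions 1 to 7 (4 without WT replicate 2, 5 without KO replicate 1, 7 without KO replicate 2). WT-only ETS1 regions numbered 0 to 4 (3, 2 and 4 when WT replicate 1, WT replicate 2 or KO replicate 1 was left out), and KO-only ETS1 regions 0 to 7 (2, 1 and 7 when WT replicate 2, KO replicate 1 or KO replicate 2 was left out). Of the 8 calls of a gene as higher in a genotype, over the 3 antibodies, 6 were made the same way with equal numbers of peaks, 7 with 50 kb flanks and 8 with 0.1 kb added. With gene bodies alone 5 of the 7 that still had a peak were kept, and with −log10 q of at least 5, 3 of 5. Without regions at neighbouring protein-coding genes, 5 of the 6 that still had a peak were kept. Calls not made with the settings of the report appeared for ETS1 with equal numbers of peaks (Foxp3, Bcl6 and Prdm1) and within gene bodies (Prdm1, -0.70), and for CTCF with −log10 q of at least 5 (Ahr, 1.18) and 50 kb flanks (Ascl2, 0.44). The cause was not tested. No paired analysis was possible because the results come from no test and, by the titles, the WT libraries of an antibody share 1 biological replicate number while the KO libraries have different ones. Depth is unknown.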
